A study of Parachlorella kessleri with 6 samples.

Results

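Malate synthase and isocitrate lyase, the enzymes that set the glyoxylate cycle apart from the tricarboxylic acid cycle, were followed in the unicellular green alga Parachlorella kessleri under salt stress. Rows of an assembled transcript table were chosen by name, from a best protein match in Swiss-Prot or in NCBI's NR collection that reads malate synthase or isocitrate lyase. This rule found 12 of 22972 rows: 7 named malate synthase, 4 named isocitrate lyase and 1 named 2-isopropylmalate synthase. The last contains the searched letters but is an enzyme of leucine synthesis, and it is described apart. Names are those of best matches in other organisms, and no enzyme activity was measured here.

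RNA-seq libraries were made from cells cultivated under salt stress (3 libraries) and from cells kept under control conditions (3 libraries), both at day 2. The sources used here do not give the salt concentration, the medium and its carbon source, the strain or any alleles, nor whether the replicates were separate cultures. The p-values therefore measure the spread between these libraries, which may be technical. Library totals were 19849594 to 21654407 counts in salt and 16460455 to 24065705 in control. Levels are CPM, counts relative to library size scaled by TMM factors, and log2 fold changes are salt over control from edgeR's quasi-likelihood test over 11438 rows, with a call at an adjusted p under 0.05.

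As background, isocitrate lyase splits isocitrate into succinate and glyoxylate, and malate synthase joins glyoxylate to acetyl-CoA to give malate. Together they carry isocitrate past the steps of the tricarboxylic acid cycle that release carbon dioxide, so that acetyl units from acetate or from fatty acids can be turned into sugars. In Chlorella and Chlamydomonas the cycle is known for its part in growth on acetate, and in germinating oilseeds for the conversion of stored fat.

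The names fell into 3 Trinity components, groups of contigs that share an identifier up to its last part. The component TRINITY_DN5425_c2 (here malate synthase c2) held 2 rows with the name, TRINITY_DN5425_c0 (malate synthase c0) held 5, and TRINITY_DN5461_c4 held the 4 isocitrate lyase rows. Both malate synthase components belong to the same read cluster, DN5425, but differ in their NR matches. The best NR match of TRINITY_DN5425_c2_g1 was the Chlorella variabilis protein CHLNCDRAFT_49305, and that of TRINITY_DN5425_c0_g3 and TRINITY_DN5425_c0_g6 was CHLNCDRAFT_133175 of the same species. TRINITY_DN5425_c0_g1 and TRINITY_DN5425_c0_g5 matched malate synthase of Helicosporidium, a non-photosynthetic relative of Chlorella. TRINITY_DN5425_c0_g2 matched a Rhizophagus protein and TRINITY_DN5425_c2_g4 a Xanthomonas malate synthase. All 4 isocitrate lyase rows shared one NR match, CHLNCDRAFT_29144 of Chlorella variabilis.

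Protein domains of the named enzyme were listed for 4 of these rows. The Pfam malate synthase family was listed for TRINITY_DN5425_c2_g1 on 2 predicted reading frames, at residues 90 to 188 of one and 44 to 169 of the other. It was listed at residues 1 to 185 in TRINITY_DN5425_c0_g5 and at residues 39 to 105 in TRINITY_DN5425_c0_g6. The isocitrate lyase family was listed for TRINITY_DN5461_c4_g2 at residues 5 to 133. The other 7 rows with either name carried no domain entry.

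Malate synthase and isocitrate lyase transcripts were lower in salt. Of the 7 malate synthase rows 6 were called lower and 1 had too few counts to be tested, and all 4 isocitrate lyase rows were called lower. For comparison, 57.8% of all 11438 tested rows were called, 28.7% lower in salt and 29.1% higher. That is 3285 rows lower and 3331 higher, against 2658 lower and 4064 higher when libraries were scaled by their totals alone. In each of the 10 tested rows every salt library lay below every control library, as in 32.6% of all tested rows. TRINITY_DN5425_c0_g1 passed the filter on low counts only through the control libraries, so its place among the lowered rows follows from the filter. Together the 11 rows with either name held 0.0592%, 0.0531% and 0.0537% of all counts in salt replicates 1, 2 and 3, against 0.160%, 0.158% and 0.173% in control replicates 1, 2 and 3.

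**Figure D1:**
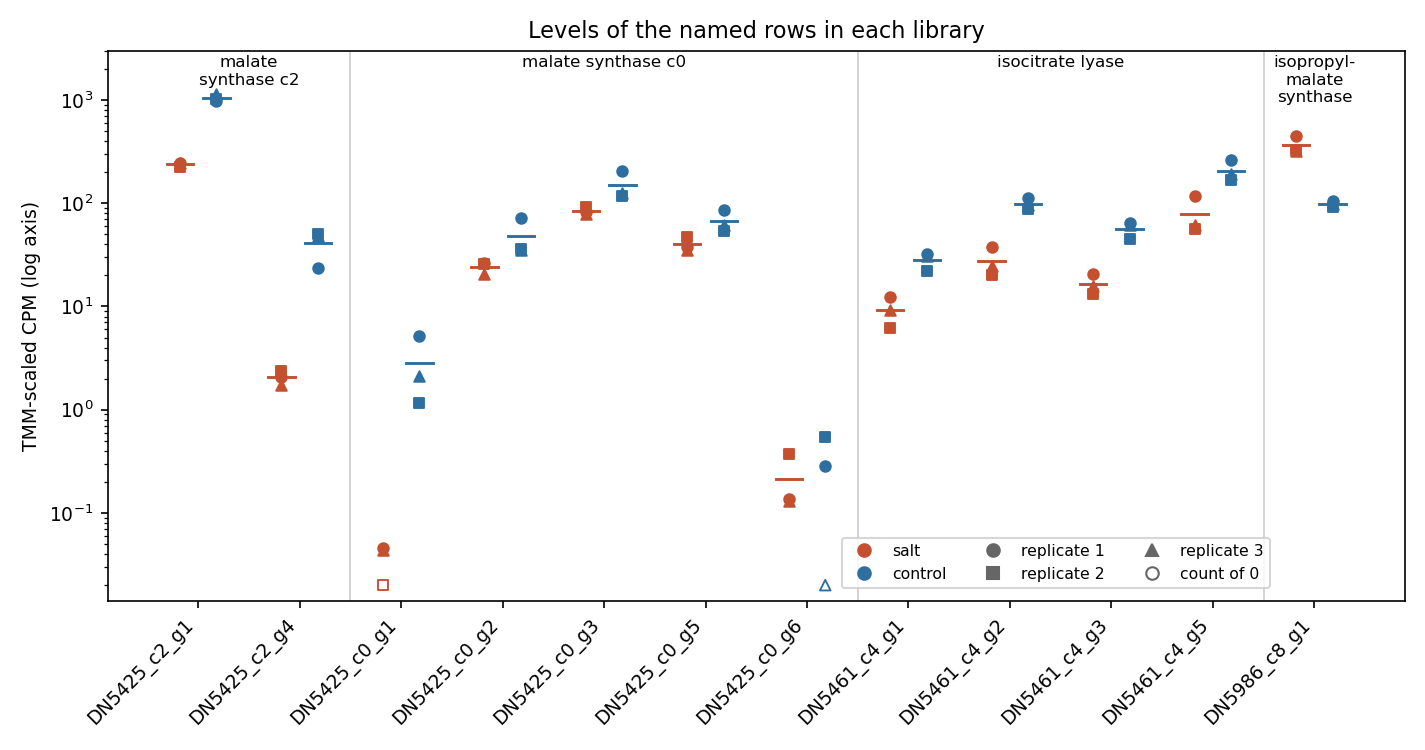
Level of each named row in each library, as TMM-scaled CPM on a log axis, with salt in red left of control in blue. Marker shapes give the replicate, short lines the group mean (left out where a library is at 0) and open markers a count of 0. The 10 tested malate synthase and isocitrate lyase rows sit lower in every salt library, and TRINITY_DN5986_c8_g1, 2-isopropylmalate synthase, sits higher.

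The most abundant row, malate synthase TRINITY_DN5425_c2_g1, had 246, 223 and 246 CPM in salt replicates 1, 2 and 3, against 982, 1033 and 1137 CPM in control replicates 1, 2 and 3. The groups lay far apart and varied little within themselves, at 238 ± 13.5 CPM in salt and 1051 ± 79.0 CPM in control (mean ± SD, n = 3 each). Its level was 4.41 times lower in salt (log2 fold change -2.14, SE 0.13, adjusted p = 4.47e-05). By mean level over the 6 libraries it ranked 151 of the 11438 tested rows, and by the size of its fall it ranked 830. On the authors' FPKM scale, which divides by a length set for each transcript, it had 235, 215 and 244 in salt, against 806, 1079 and 1133 in control.

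The other named row of this component, TRINITY_DN5425_c2_g4, was small. It had 2.09, 2.35 and 1.74 CPM in the salt libraries, against 23.7, 50.7 and 48.1 CPM in the control libraries. Its log2 fold change was -4.30 on counts (SE 0.35, adjusted p = 0.000105) and -2.58 on log2(FPKM + 1) with limma (adjusted p = 0.000234). It made up 0.843%, 1.05% and 0.702% of the summed named counts of c2 in salt and 2.36%, 4.68% and 4.06% in control, with no overlap (exact two-sided permutation p = 0.1, the smallest that 3 against 3 libraries allow). The effective length implied by its counts and FPKM values, which is not the length of the row, was only 9 to 49 bases across libraries. Its FPKM is therefore not a usable level. TRINITY_DN5425_c2_g1 held the rest, with 99.2%, 99.0% and 99.3% of these counts in salt, against 97.6%, 95.3% and 95.9% in control.

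Beside these rows stood TRINITY_DN5425_c2_g2, which has the same NR match as TRINITY_DN5425_c2_g1 but no Swiss-Prot name, KEGG entry or Pfam domain. Whether it is a malate synthase transcript was not tested. It had 222, 234 and 243 CPM in salt, against 835, 1262 and 1305 CPM in control (log2 fold change -2.28, SE 0.20, adjusted p = 0.000151). The ratio of counts of TRINITY_DN5425_c2_g1 to this row was 1.11, 0.952 and 1.01 in salt, against 1.18, 0.818 and 0.871 in control. The ranges of this ratio overlapped (exact two-sided permutation p = 0.5, smallest possible 0.1). The row falls outside the name rule and was singled out after its values were seen.

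Malate synthase c0 was lower in salt too, by less. Its most abundant row, TRINITY_DN5425_c0_g3, had 81.5, 91.8 and 77.8 CPM in salt, against 204, 118 and 126 CPM in control. Control replicate 1 stood well above the other control libraries. The log2 fold change was -0.83 (SE 0.22, adjusted p = 0.0157). TRINITY_DN5425_c0_g5 had 38.0, 47.1 and 35.5 CPM in salt, against 85.1, 54.1 and 61.1 CPM in control (log2 fold change -0.73, SE 0.20, adjusted p = 0.0183). TRINITY_DN5425_c0_g2 had 26.2, 25.6 and 20.9 CPM in salt, against 72.2, 35.7 and 35.3 CPM in control (-0.98, SE 0.30, adjusted p = 0.0267). In each of these rows control replicate 1 was the highest library.

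The calls of these 3 rows rested on few libraries. Without control replicate 1 the log2 fold changes were -0.54 for TRINITY_DN5425_c0_g3, -0.52 for TRINITY_DN5425_c0_g5 and -0.55 for TRINITY_DN5425_c0_g2, still called. Without salt replicate 3 none of them was called, with adjusted p-values of 0.0574, 0.0677 and 0.0884 in the same order. TRINITY_DN5425_c0_g2 was also not called without salt replicate 1 (0.0580) or salt replicate 2 (0.0650), and TRINITY_DN5425_c0_g5 without salt replicate 1 (0.0547).

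The remaining c0 rows were scarce. TRINITY_DN5425_c0_g1 had 1, 0 and 1 counts in salt replicates 1, 2 and 3, against 108, 23 and 34 counts in control replicates 1, 2 and 3. Relative to the scaled library sizes the ratio of salt to control was 0.0103, with a 95% interval of 0.00124 to 0.0379 from the exact binomial distribution, which covers counting error only. TRINITY_DN5425_c0_g6 had 3, 8 and 3 counts in salt, against 6, 11 and 0 in control, and was not tested. A count of 0 allows up to 3 counts in a library, or 0.125 to 0.182 CPM before TMM scaling.

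Isocitrate lyase was spread over 4 rows, all lower in salt. TRINITY_DN5461_c4_g5, which held most of the counts, had 118, 56.6 and 61.1 CPM in salt, against 263, 166 and 191 CPM in control (log2 fold change -1.40, SE 0.32, adjusted p = 0.00844). Replicate 1 was the highest library in both groups. TRINITY_DN5461_c4_g2, the row with the isocitrate lyase domain, had 37.4, 20.3 and 24.9 CPM in salt, against 112, 87.7 and 97.0 CPM in control (-1.85, SE 0.24, adjusted p = 0.0007). The salt and control libraries of these rows did not overlap.

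TRINITY_DN5461_c4_g3 averaged 16.6 ± 3.70 CPM in salt and 56.8 ± 9.95 CPM in control (SD, n = 3 each; log2 fold change -1.78, SE 0.21, adjusted p = 0.000492). TRINITY_DN5461_c4_g1 averaged 9.28 ± 3.13 CPM in salt and 28.3 ± 5.62 CPM in control (-1.61, SE 0.29, adjusted p = 0.00281). The effective lengths implied by counts and FPKM had medians of 113 bases for TRINITY_DN5461_c4_g2, 38 for TRINITY_DN5461_c4_g5, 21 for TRINITY_DN5461_c4_g3 and 9 for TRINITY_DN5461_c4_g1. These are not the lengths of the rows. The domain of TRINITY_DN5461_c4_g2 reaches residue 133, which 113 bases cannot encode. With effective lengths this short, a level per length was not compared between isocitrate lyase and malate synthase.

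Within isocitrate lyase the mean share of a row in the summed counts differed by at most 6.17 percentage points between the groups. TRINITY_DN5461_c4_g5 held 62.6%, 58.7% and 55.0% of the summed counts in salt, against 55.7%, 51.8% and 50.3% in control, with overlapping ranges (exact two-sided permutation p = 0.2). TRINITY_DN5461_c4_g2 held 19.9%, 21.1% and 22.4% in salt, against 23.8%, 27.3% and 25.5% in control, without overlap (exact p = 0.1, the smallest possible). The shares of 11 rows and of c0 as a whole were tested in this way, 12 tests in all, and none could pass 0.05 with 3 libraries a group.

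**Figure D2:**
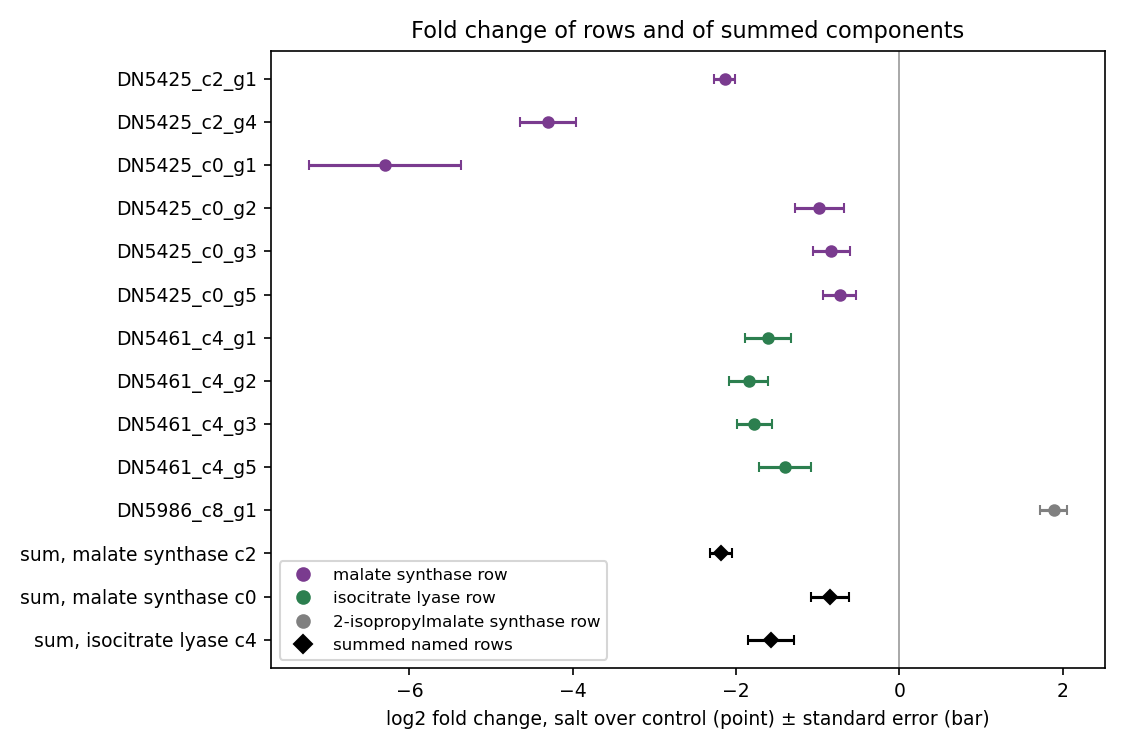
Log2 fold change of each tested row and of the summed named rows of each component, salt over control, with its standard error as a bar. The c2 sum (-2.18) and the isocitrate lyase sum (-1.57) lie left of the c0 sum (-0.85), and 2-isopropylmalate synthase (1.89) lies right of 0.

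Reads can be divided between contigs of one component, so the named rows of each component were also summed and tested as a single row. Malate synthase c2 summed to 248, 225 and 248 CPM in salt, against 1006, 1084 and 1185 CPM in control. The sum was 4.55 times lower in salt (log2 fold change -2.18, SE 0.14, adjusted p = 4.46e-05). Isocitrate lyase summed to 188, 96.4 and 111 CPM in salt, against 471, 321 and 380 CPM in control. It was 2.97 times lower in salt (-1.57, SE 0.28, adjusted p = 0.00296). In both sums all salt libraries lay below all control libraries.

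Malate synthase c0 summed to 146, 165 and 134 CPM in salt, against 366, 209 and 224 CPM in control. The groups did not overlap, and control replicate 1 was far above the rest. The sum was 1.80 times lower in salt (log2 fold change -0.85, SE 0.23, adjusted p = 0.0171). Without control replicate 1 the log2 fold change was -0.55 (adjusted p = 0.0054), and the call was lost without salt replicate 1 (adjusted p = 0.0503) and without salt replicate 3 (adjusted p = 0.0631). The difference between libraries of the same number was -1.33 for number 1, -0.34 for number 2 and -0.74 for number 3.

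Control replicate 1 stood apart across the whole table. The chi-square statistic per row was 173 and 147 between it and the other control libraries and 5.23 between those, against 33.4 to 58.5 among the salt libraries. Without control replicate 1 the log2 fold changes were -2.24 for malate synthase c2 and -1.41 for isocitrate lyase, both called lower. With both replicate 1 libraries left out, a choice made after seeing the data, the log2 fold changes were -2.26 for malate synthase c2, -1.75 for isocitrate lyase and -0.53 for malate synthase c0, with adjusted p-values of 3.05e-05, 0.000118 and 0.00942. All 6 malate synthase rows and 4 isocitrate lyase rows were then called as before in number.

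The balance between the malate synthase components differed between the groups. The c0 rows held 37.1%, 42.3% and 35.1% of all counts with the malate synthase name in salt, against 26.7%, 16.2% and 15.9% in control. The groups did not overlap, with means of 38.2% ± 3.70 in salt and 19.6% ± 6.16 in control (SD, n = 3 each; exact two-sided permutation p = 0.1, the smallest possible). On the FPKM scale TRINITY_DN5425_c2_g1 was 3.22, 2.60 and 3.39 times as high as TRINITY_DN5425_c0_g3 in salt, against 4.99, 9.35 and 9.60 times in control. This comparison uses rows with implied effective lengths of 940 to 1130 and 1000 to 1212 bases. The shares of counts leave out TRINITY_DN5425_c2_g2, which lacks the name but had 222 to 243 CPM in salt and 835 to 1305 CPM in control. With that row in the total, the c0 share would be smaller in every library.

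The balance between the enzymes of the cycle overlapped between the groups. Counts of malate synthase c2 over isocitrate lyase stood at 1.32, 2.33 and 2.23 in salt, against 2.13, 3.37 and 3.12 in control. The ranges overlapped, since replicate 1 was lowest in both groups (difference of mean log2 ratios -0.57, exact two-sided permutation p = 0.3, smallest possible 0.1). Between libraries of the same number the log2 difference was -0.70, -0.53 and -0.48, lower in salt in all 3 pairs (exact two-sided permutation of signs p = 0.25, the smallest that 3 pairs allow). For all named malate synthase counts over isocitrate lyase the difference was -0.19 (exact p = 0.7), and within the pairs -0.48, 0.0081 and -0.11 (exact p = 0.5). These are ratios of counts and depend on the lengths of the rows, so only their comparison between libraries can be read.

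**Figure D3:**
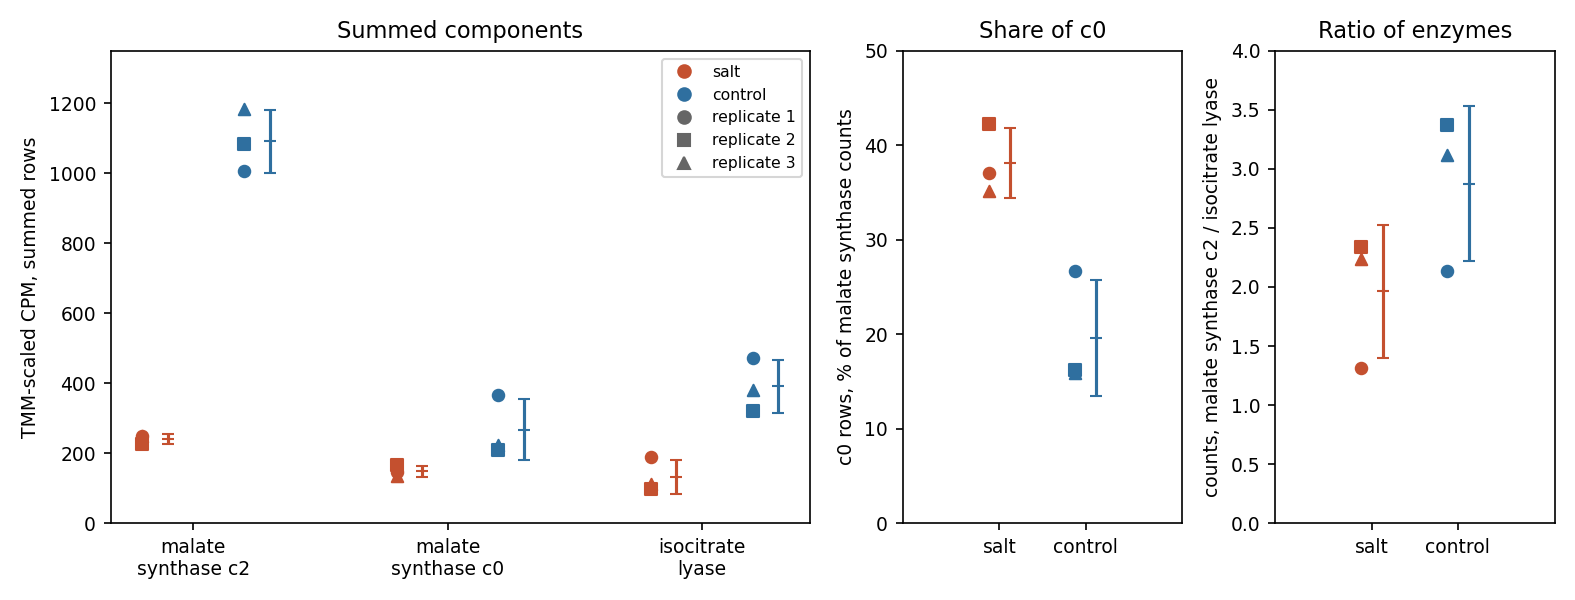
Left, CPM of the summed named rows per library, with mean ± SD beside the points; centre, share of malate synthase counts held by the c0 rows; right, ratio of counts of malate synthase c2 to isocitrate lyase. Salt is red and left of control in blue, and marker shapes give the replicate. The sums and the c0 share do not overlap between the groups, while the ratio at right does.

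The authors' deposited table, made from the same libraries, gave all 11 rows with either name a negative log2 fold change. That of TRINITY_DN5425_c0_g6 was -0.44, with a false discovery rate of 0.838. The share of all rows with a negative value there was not counted. The authors marked as significant the 4 isocitrate lyase rows, both c2 rows and the c0 rows TRINITY_DN5425_c0_g1 and TRINITY_DN5425_c0_g2. Of all rows in the authors' deposited table, 9.71% were marked significant and lower. TRINITY_DN5425_c0_g3 and TRINITY_DN5425_c0_g5, called lower here, were not marked there. Their log2 fold changes in the authors' deposited table were -0.82 and -0.70, with false discovery rates of 0.00389 and 0.00819. No row of the authors' deposited table was marked with a log2 fold change smaller in size than 1.

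The row set aside, 2-isopropylmalate synthase TRINITY_DN5986_c8_g1, went the other way. It had 447, 331 and 323 CPM in salt, against 106, 92.3 and 98.5 CPM in control (log2 fold change 1.89, SE 0.16, adjusted p = 0.000138). The enzyme starts the branch to leucine from acetyl-CoA and a keto acid of valine synthesis.

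Enzymes that feed, share or surround the cycle were read from 7 lists of names. The lists count rows singly, and rows of one component were not summed, so their counts are not numbers of genes. Of all 11438 tested rows, 995 reached the filter's level of 0.482 CPM in every library of 1 group but not of the other, which ties their call to the filter, and the count of each list that holds any is also given without them, a choice made after seeing the data. Acyl-CoA activation and beta-oxidation, which supply acetyl-CoA from fatty acids, had 14 of 23 tested rows lower, 0 higher and 9 not called. The median log2 fold change was -0.78, against 0.01 over all tested rows. Without 1 row that passed only through control, 13 of 22 were lower (59.1%), against 27.7% of all rows counted in this way. Drawn up by name, the list also counts 2 dehydrogenases not named for fatty acids. These are isovaleryl-CoA dehydrogenase (TRINITY_DN5919_c5_g2; -0.53, called lower) and isobutyryl-CoA dehydrogenase (TRINITY_DN5597_c0_g1; -0.02, not called). Among the lowered rows, TRINITY_DN5445_c0_g1, TRINITY_DN5445_c0_g2 and TRINITY_DN5445_c0_g4 share a component, as do TRINITY_DN4707_c5_g2 and TRINITY_DN4707_c5_g3. TRINITY_DN5266_c2_g1 (lower) shares one with TRINITY_DN5266_c2_g3 (not called), and TRINITY_DN5300_c0_g1 with TRINITY_DN5300_c0_g2 (neither called). The row with the smallest p was a long-chain-fatty-acid CoA ligase (TRINITY_DN5960_c1_g3), which activates fatty acids, with 121 ± 8.45 CPM in salt and 294 ± 2.21 CPM in control (log2 fold change -1.27, SE 0.11, adjusted p = 0.000119). The most abundant was peroxisomal 3-ketoacyl-CoA thiolase 2 (TRINITY_DN4707_c5_g3), which releases acetyl-CoA, with 306, 392 and 56.3 CPM in salt, against 1512, 1916 and 1948 CPM in control (-2.83, SE 0.64, adjusted p = 0.00821). Without salt replicate 3 only 8 rows of the list were called lower.

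Among the 5 rows listed by name for acetate activation, 1 was lower, 0 were higher and 4 were not called (median -0.09). That is 20% lower, against 28.7% lower and 29.1% higher among all tested rows. The list includes acetate kinases (TRINITY_DN5550_c0_g1 and TRINITY_DN4510_c0_g1). It also includes TRINITY_DN4934_c2_g2 and TRINITY_DN4184_c0_g1, known only by an NR match to an acetyl-CoA synthetase-like protein. That NR name is also on TRINITY_DN5445_c0_g2, a long chain acyl-CoA synthetase of the beta-oxidation list. The lowered row was acetyl-CoA synthetase (TRINITY_DN5214_c0_g10), which had 183, 179 and 156 CPM in salt, against 482, 433 and 441 CPM in control (log2 fold change -1.39, SE 0.12, adjusted p = 0.000146). It was also the most abundant row of the list. Without salt replicate 1, and also with both replicate 1 libraries left out, 2 rows of this list were called lower.

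Rows named for enzymes that the glyoxylate cycle shares with the tricarboxylic acid cycle were mixed. The list took malate dehydrogenases of any compartment, the chloroplast included. Of 14 tested rows 3 were higher, 3 lower and 8 not called (median 0.07). That is 21.4% each way, against 29.1% higher and 28.7% lower among all tested rows. Without 2 rows that passed only through salt, 2 of 12 were higher and 3 lower. Mitochondrial aconitase (TRINITY_DN5253_c0_g1), which makes isocitrate and was the most abundant, had 1404 ± 211 CPM in salt and 1364 ± 116 CPM in control (log2 fold change 0.04, SE 0.17, adjusted p = 0.846; -0.09 without salt replicate 1 and -0.02 without control replicate 1). A chloroplast malate dehydrogenase (TRINITY_DN3857_c0_g3), with the smallest p, was higher at 182 ± 25.4 CPM in salt and 66.8 ± 6.15 CPM in control (1.45, SE 0.14, adjusted p = 0.000225). Further rows were named after their values were seen. A citrate synthase (TRINITY_DN4336_c0_g1) was lower (-1.16, SE 0.22, adjusted p = 0.00401), as was a cytoplasmic malate dehydrogenase (TRINITY_DN5764_c0_g3; -2.63, SE 0.28). The latter had 23.9 ± 7.19 CPM in salt and 149 ± 33.4 CPM in control. Also named cytoplasmic were TRINITY_DN5536_c2_g1 (0.34; 231 ± 37.9 CPM in salt, 182 ± 4.67 in control) and TRINITY_DN5536_c2_g3 (0.27). Neither was called, nor was TRINITY_DN5536_c2_g2 (0.35), a malate dehydrogenase of their component. The cytoplasmic name thus had no single direction. A mitochondrial malate dehydrogenase (TRINITY_DN4152_c0_g3) was higher, with 897 ± 219 CPM in salt and 393 ± 85.6 CPM in control (1.19, SE 0.23, adjusted p = 0.00423). The glyoxysomal malate dehydrogenase (TRINITY_DN3857_c0_g1), named for the compartment of the plant cycle, had 152 ± 19.6 CPM in salt and 142 ± 63.8 CPM in control (0.10, SE 0.30). With library totals alone as the scaling, 6 rows of this list were called higher.

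The steps from isocitrate dehydrogenase to fumarase had 1 of 10 tested rows higher, 3 lower and 6 not called (median -0.08). The cycle bypasses those up to succinyl-CoA ligase, while succinate dehydrogenase (TRINITY_DN5166_c0_g1; 0.42, adjusted p = 0.0666) and fumarase (TRINITY_DN5368_c0_g5; 0.32, adjusted p = 0.0982) also take the succinate that isocitrate lyase releases. Of the 10 tested rows 30% were lower and 10% higher, against 28.7% and 29.1% of all tested rows. Without 1 row that passed only through control, 2 of 9 were lower. The higher row was NADP isocitrate dehydrogenase (TRINITY_DN5329_c0_g1), which uses the same substrate as isocitrate lyase. It had 681, 555 and 563 CPM in salt, against 258, 318 and 327 CPM in control (log2 fold change 0.995, SE 0.15, adjusted p = 0.00149). The name of this row gives no compartment, and TRINITY_DN5329_c0_g7 of the same component, not tested, matched a cytosolic form. The list held no row named for an NAD-dependent isocitrate dehydrogenase. Whether TRINITY_DN5329_c0_g1 serves the bypassed step was not tested. A subunit of 2-oxoglutarate dehydrogenase (TRINITY_DN5044_c0_g2), the most abundant, had -0.13 (SE 0.16, adjusted p = 0.52). With library totals alone as the scaling, 3 rows were called higher and this subunit had 0.06.

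Gluconeogenesis had 3 of 11 tested rows higher, 2 lower and 6 not called (median 0.08). That is 27.3% higher and 18.2% lower, against 29.1% and 28.7% of all tested rows. Chloroplast fructose-1,6-bisphosphatase (TRINITY_DN4535_c0_g8), which also serves the Calvin cycle, was higher at 394 ± 14.7 CPM in salt and 79.9 ± 5.15 CPM in control (log2 fold change 2.30, SE 0.11, adjusted p = 2.4e-05). The cytosolic form (TRINITY_DN4535_c0_g3), chosen after its values were seen, was lower, with 133, 117 and 136 CPM in salt, against 189, 304 and 303 CPM in control (-1.04, SE 0.20, adjusted p = 0.00394). Phosphoenolpyruvate carboxykinase (TRINITY_DN6018_c4_g1), which takes oxaloacetate from the cycle towards sugars, had 309, 431 and 178 CPM in salt, against 177, 166 and 180 CPM in control. Salt replicate 3 lay within the control range (0.81, SE 0.29, adjusted p = 0.0494), and it was not called once replicate number was a block (adjusted p = 0.0671), with DESeq2 size factors (0.0533), or on leaving out any single library other than salt replicate 3. With the block, and on each of those left-out fits, 1 row of the list was called higher. Another row with this name (TRINITY_DN5218_c0_g2), also chosen after its values were seen, was lower, at 7.42 ± 2.93 CPM in salt and 23.3 ± 4.72 CPM in control (SD, n = 3 each; -1.65, SE 0.31, adjusted p = 0.00343). The other tested rows of its component had the same name and were not called. These were TRINITY_DN5218_c0_g1 (-0.50), TRINITY_DN5218_c0_g3 (0.41), TRINITY_DN5218_c0_g4 (0.06) and TRINITY_DN5218_c0_g5 (-0.50). This component was not summed. Rows TRINITY_DN5113_c1_g1 (0.08) and TRINITY_DN5174_c0_g1 (0.61), also so named, were not called.

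Photorespiration is the other main source and sink of glyoxylate in green cells. Of its 8 tested rows 3 were lower, 2 higher and 3 not called (median -0.26), or 37.5% lower and 25% higher. Among all tested rows 28.7% were lower and 29.1% higher. Serine-glyoxylate aminotransferase (TRINITY_DN4596_c0_g2), which turns glyoxylate into glycine, had 209, 144 and 207 CPM in salt, against 729, 1001 and 972 CPM in control (log2 fold change -2.27, SE 0.21, adjusted p = 0.000189). The decarboxylating glycine dehydrogenase (TRINITY_DN6007_c0_g1) had 850 ± 129 CPM in salt and 1608 ± 34.4 CPM in control (-0.92, SE 0.16, adjusted p = 0.00243). On leaving out any single library other than salt replicate 1, 1 row of this list was called higher. Of 7 tested rows for peroxisome assembly 3 were lower, 1 was higher and 3 were not called (median -0.13). With all 7, 42.9% were lower and 14.3% higher, against 28.7% and 29.1% of all tested rows. Without 1 row that passed only through control, 2 of 6 were lower. The smallest p was that of peroxin 10 (TRINITY_DN5447_c4_g2; -0.68, SE 0.12, adjusted p = 0.0025), and the most abundant was peroxin 6 (TRINITY_DN5984_c3_g1; -0.73, SE 0.14, adjusted p = 0.00397).

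**Figure D4:**
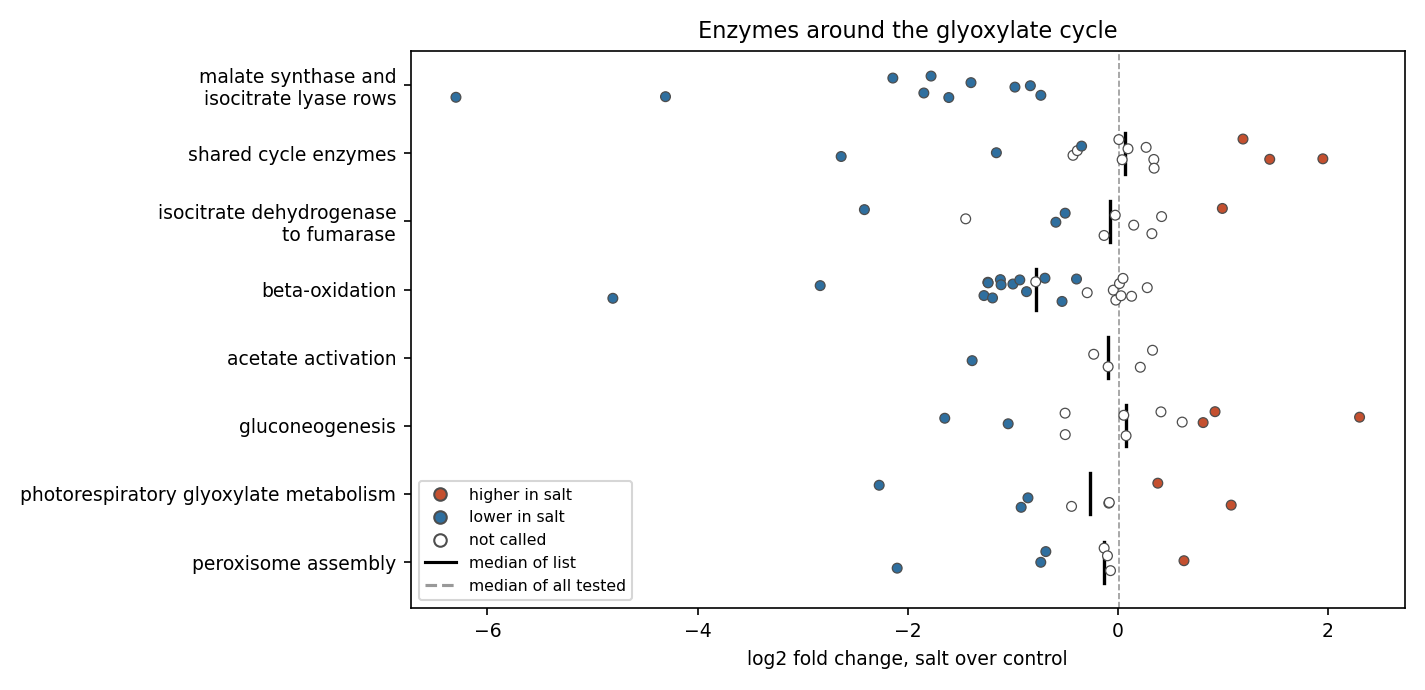
Log2 fold change, salt over control, of every tested row with the malate synthase or isocitrate lyase name (top) and of the 7 lists around the cycle; red is called higher in salt, blue lower and white not called. Black lines are list medians and the dashed line is the median of all tested rows (0.01). Beta-oxidation has its median at -0.78, and the other lists lie between -0.26 and 0.08.

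The profiles over the 6 libraries of other described rows were compared with those of the most abundant malate synthase row and of the isocitrate lyase row with the domain. Likeness was the Euclidean distance of log2 CPM after subtracting each row's own mean, over 3146 described rows at or above the median level. Nearest to TRINITY_DN5425_c2_g1 were an RNA-binding protein (TRINITY_DN5581_c1_g6, distance 0.17), a serine/threonine kinase (TRINITY_DN5701_c0_g2, 0.20), a chloroplast membrane-associated 30 kDa protein (TRINITY_DN5477_c0_g2, 0.27), an acyl-CoA thioesterase (TRINITY_DN5017_c5_g1, 0.30) and a glyoxalase domain protein (TRINITY_DN4835_c0_g2, 0.32). Nearest to TRINITY_DN5461_c4_g2 were L-aspartate oxidase (TRINITY_DN5418_c1_g3, 0.29), a DEAD-box RNA helicase (TRINITY_DN4624_c1_g3, 0.37), a row named spidroin-1 (TRINITY_DN5827_c3_g2, 0.40), an importin alpha (TRINITY_DN6010_c4_g2, 0.50) and an expressed protein of Chlorella (TRINITY_DN5730_c0_g2, 0.53). The distance between the malate synthase row and the isocitrate lyase row themselves was 0.72. The measure takes in the size of the difference between salt and control as well as the spread within the groups.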

How the data were processed

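RNA was sequenced from 3 salt and 3 control libraries, after library preparation by a Proton sequencing protocol per the labels. The deposited table holds, per the file headers, raw counts per assembled gene and library, FPKM values made by the authors, and the authors' log2 fold change with its p-value and false discovery rate. The aligner, the counting tool and the filters are not named in the sources used here. Gene identifiers have the form that the Trinity assembler writes. Neither a genome nor sequences were used, so no positions are given.

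Counts as deposited were tested with edgeR 4.0.16 (quasi-likelihood test, TMM factors, filterByExpr with a minimum count of 10) in R 4.3.3, over all rows, with Benjamini-Hochberg adjusted p-values and a threshold of 0.05. Every adjusted p-value of a fold change given here comes from this test unless another is named. The standard error is the size of the log2 fold change over the square root of the F statistic. Sums add the counts of the named rows of a component before the fit. Implied effective length was derived from the deposited counts, FPKM and library totals, and is not the length of a row. Ratios and shares were compared with exact permutation tests (SciPy 1.17.1), for which 3 against 3 libraries give no p under 0.1. One count was worth 0.0416 to 0.0608 CPM, and intervals and floors cover counting error only. The scripts were tested on simulated data.

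The chosen rows and the lists of names were set with earlier results of these data known, and the list patterns were narrowed on descriptions alone. Named beside the chosen rows are, in each list, the tested row with the smallest p and the one with the highest mean CPM, and the 5 described rows nearest in profile to TRINITY_DN5425_c2_g1 and to TRINITY_DN5461_c4_g2, among rows at or above the median level. Rows named outside this rule are said to be so. The groups share replicate numbers. Deviations from the group means correlated at 0.373, 0.161 and 0.220 between libraries of the same number, which meets the criterion of 0.1 set for pairing. Salt replicate 3 with control replicate 2 (0.293) and salt replicate 2 with control replicate 3 (0.101) met it too. The other pairs of unlike number ran from -0.363 to -0.158. These values therefore do not tell numbers 2 and 3 apart, and nothing in the labels says what a number shares. Alternatives were other scalings, other filters, the DESeq2 1.42.0 Wald test, limma 3.58.1 on log2(FPKM + 0.1) and log2(FPKM + 1), a replicate block and each library left out.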

Additional observations from a re-analysis of the deposited data

How the results depend on the processing

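The sums of malate synthase c2 and of isocitrate lyase were called lower in salt under every alternative run, with log2 fold changes of -2.35 to -2.004 and of -1.92 to -1.38. Summing all rows of the read cluster DN5425 gave -1.82. This merges c0 with c2 and adds the rows without the name, among them TRINITY_DN5425_c2_g2 and TRINITY_DN5425_c1_g1, which was higher in salt. The c0 sum ran from -0.99 to -0.55 when single libraries were left out. It was no longer called without salt replicate 1 (-0.84) or salt replicate 3 (-0.78), fits that also have fewer samples. The number of malate synthase rows called lower ran from 3 to 6 when single libraries were left out, with 3 without salt replicate 3, 4 without salt replicate 1 and 5 without salt replicate 2. With the replicate block, the pairing gave -2.18 for c2, -0.80 for c0 and -1.61 for isocitrate lyase and changed no call among the malate synthase and isocitrate lyase rows, and 6846 rows were called in all, against 6616 without it. Scaling by library totals moved the median log2 fold change of all tested rows to 0.20, against 0.01, and gave the smallest fall of c2, -0.64 for c0 and -1.38 for isocitrate lyase. Aconitase TRINITY_DN5253_c0_g1, never called, ran from -0.0889 to 0.134 when single libraries were left out and had -0.15 with both replicate 1 libraries left out. The 2-oxoglutarate dehydrogenase subunit TRINITY_DN5044_c0_g2, also not called, had 0.0558 with library totals. The cause of these changes was not tested. Depth limits TRINITY_DN5425_c0_g1 and TRINITY_DN5425_c0_g6, which had 0 to 8 counts in each salt library.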

Other observations

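Other rows of the same read clusters were looked at after their values were seen. In the read cluster of isocitrate lyase, DN5461, 9 rows lacked the name, of which 6 were called lower in salt, 1 higher and 2 were not tested, beside 28.7% lower and 29.1% higher among all tested rows. Of the 7 tested rows, 4 passed the filter on low counts through the libraries of 1 group only, which ties their calls to the filter, and the other 3 were called lower. TRINITY_DN5461_c2_g1, with no description, had 1.18, 0.507 and 0.523 CPM in salt, against 28.9, 22.5 and 27.2 CPM in control (log2 fold change -5.14, SE 0.35). TRINITY_DN5461_c4_g4, in the same component as isocitrate lyase but with another Chlorella variabilis match, passed only through salt and was higher, with 4.40, 2.77 and 2.83 CPM in salt, against 1.25, 0.350 and 0.440 CPM in control (2.27, SE 0.52, adjusted p = 0.00885).

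In the malate synthase read cluster, DN5425, 7 rows lacked the name, of which 2 were called lower, 2 higher and 3 were not tested. Without 2 rows that passed the filter through 1 group only, 1 was lower and 1 higher. TRINITY_DN5425_c2_g6, which passed only through salt, had 1.86, 2.77 and 1.87 CPM in salt, against 0.144, 0 and 0.126 CPM in control. TRINITY_DN5425_c1_g1, named for a macro domain, was higher, with 99.0 ± 18.5 CPM in salt and 58.1 ± 7.38 CPM in control (SD, n = 3 each; log2 fold change 0.77, SE 0.17, adjusted p = 0.00685).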
